A study of Homo sapiens with 2 samples.

Results

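Core spliceosome genes were followed in PAR-CLIP libraries of ZC3H7B and ZC3H7A, both CCCH zinc finger proteins. The members were every gene whose whole symbol was SF3A, SF3B or SNRNP followed by a number, or PRPF followed by a number with or without A or B. Whole symbols of SNRP followed by letters or numbers, or of LSM or U2AF followed by a single digit, also counted. In all, 44 of the 10145 genes with a called cluster in either library met this rule, 41 of 9159 in the ZC3H7B library and 44 of 8204 in the ZC3H7A library. They were 42 coding genes and 2 processed pseudogenes, SNRPEP4 and SNRPGP2. A further 9 coding genes of the RefSeq annotation matched the rule and had no row in either table, among them LSM2, LSM8, PRPF3, SF3B4, SNRNP25 and SNRNP35.

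The cells were HEK293, a line from human embryonic kidney, and each library came from cells that expressed 1 protein with a Flag/HA tag, induced for 24 h with doxycycline at 1 µg/mL. They were fed 4-thiouridine at 100 µM for 16 h and irradiated at 365 nm, so that crosslinked uridines were read as T-to-C conversions after immunoprecipitation and RNase T1 digestion. There was 1 library for each protein, both labelled replicate 1, and the tagged proteins were overexpressed. Every difference given here is therefore between 2 libraries, with no replicate check and no test. No uninduced, untagged or input library was analysed here.

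The spliceosome removes introns from pre-mRNA and is assembled from small nuclear ribonucleoproteins (snRNPs), each a small nuclear RNA with its own proteins. U1 recognises the 5' splice site and U2 the branch site, and the tri-snRNP of U4, U6 and U5 then joins to form the catalytic core. Most snRNPs share a ring of Sm proteins, whereas U6 carries a ring of related LSm proteins. The values of the members are for clusters on transcripts of the genes for these proteins. They do not measure contacts with the spliceosome itself, and reads on small nuclear RNAs are given separately below.

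The ZC3H7B library held 2409465 reads on genes, made of 1212989 distinct reads in 99805 clusters, and the ZC3H7A library held 3779662 reads, made of 300342 distinct reads in 51808 clusters. A cluster is a group of overlapping crosslinked reads, and identical reads are counted once among distinct reads. On the members each distinct read was present 1.94 times in the ZC3H7B library and 12.6 times in the ZC3H7A library, and without molecular identifiers these copies can be PCR products. Each tagged protein's own transcript had more reads in its own library: ZC3H7B had 3768 reads in the ZC3H7B library and 1362 in the ZC3H7A library, and ZC3H7A had 158 and 82704.

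The members took 0.666% of the reads, 0.684% of the distinct reads and 0.574% of the clusters of the ZC3H7B library. In the ZC3H7A library they took 0.934% of the reads, 0.936% of the distinct reads and 0.830% of the clusters. As a share of the genes listed they were 0.448% and 0.536%. The median member had 165 reads and 8 clusters in the ZC3H7B library, where the median gene had 82 reads and 7 clusters. In the ZC3H7A library the median member had 413 reads and 6 clusters, and the median gene 135.5 reads and 4 clusters. Reads were not divided by transcript length, so the order of the members by reads is not an order of binding per length. They were also not set against expression, which was not measured here, so the order is not one of binding per transcript.

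PRPF8, SF3B1 and SF3B3, genes for large subunits of the U5 and U2 snRNPs, were among the 5 members with the most reads in each library. PRPF8, which encodes the scaffold protein at the catalytic centre, led the ZC3H7B library with 3047 reads, against 2356 reads in the ZC3H7A library. SF3B1, which encodes the branch site subunit of SF3B, had 1645 reads in the ZC3H7B library and led the ZC3H7A library with 3929. SF3B3, a scaffold of the same complex, had 2380 and 2195 reads. Also among the 5 were PRPF38A and SNRPD3 in the ZC3H7B library, with 779 and 649 reads. In the ZC3H7A library they were SNRNP70 and SNRPD1, with 2307 reads each, more than SF3B3. The 5 members with the most reads held 52.9% of all member reads in the ZC3H7B library and 37.1% in the ZC3H7A library.

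**Figure D1:**
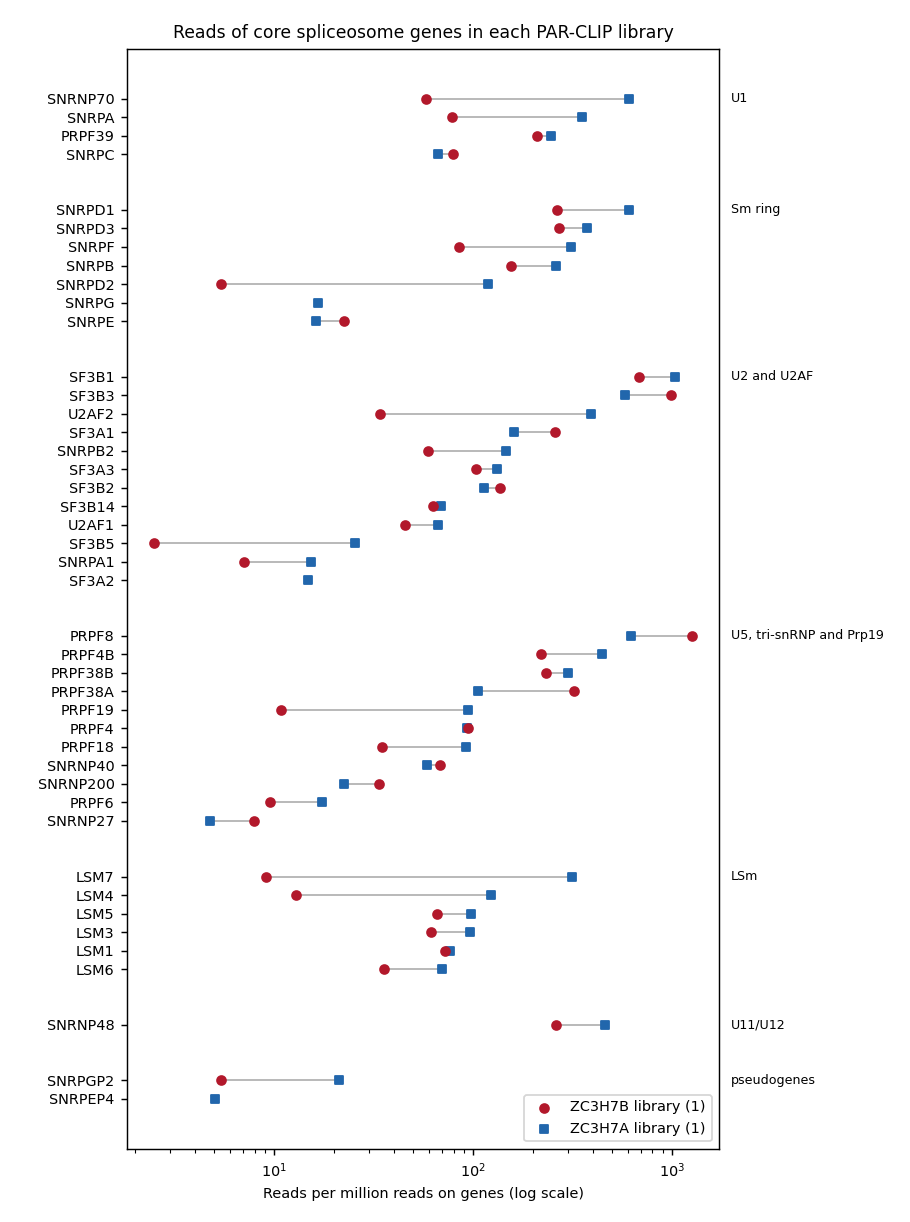
Reads per 1000000 reads on genes (horizontal, log scale) for 43 of the 44 members, grouped by complex, with 1 library per protein. Circles are the ZC3H7B library and squares the ZC3H7A library; the widest gaps are those of LSM7 (9.13 and 315) and SNRPD2 (5.40 and 119), and SF3A2, SNRPG and SNRPEP4 have no circle.

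Relative to the median gene, more core spliceosome genes had a ratio towards the ZC3H7A library than towards the ZC3H7B library. The ratio divides a gene's ZC3H7B reads by its ZC3H7A reads, in log2, scaled so that the median of the 7168 genes with a row in both tables and at least 20 reads summed was 0. Of the 41 members compared, 31 lay below 0 and 10 above, with a median of -0.81. A gene was counted as higher in 1 library where its whole exact 95% interval lay beyond 2-fold. By this rule 15 of 41 members (36.6%) were higher in the ZC3H7A library, where 18.0% of all compared genes were, and 1 (2.44%), PRPF38A, was higher in the ZC3H7B library, where 18.2% of all genes were. Intervals cover counting error only, and copies of reads make them too narrow even for that. Genes with more reads have narrower intervals and so pass the rule more easily. The median member had more reads than the median gene in each library, and the shares of all genes were not matched for reads.

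Counted in distinct reads, 9 members (22.0%) were higher in the ZC3H7A library, against 10.1% of all genes, and 0 in the ZC3H7B library, against 7.28%. The median was then -0.56. These 9 were LSM7, SNRPD2, U2AF2, SNRNP70, LSM4, PRPF19, SNRPA, SNRPF and SNRPD1, and all 9 were also called in reads, and 7.18% and 9.79% of all genes were higher in the ZC3H7B and the ZC3H7A library in both counts. They came from every group with more than 1 coding member. Of the 41 members, 38 had the same sign of the ratio in reads and in distinct reads. By mean reads per cluster, 1 member, SF3B3, was higher in the ZC3H7B library (6.18% of all genes) and 6 in the ZC3H7A library (4.65%), and by number of clusters 0 (0.321%) and 2 (0.223%), LSM4 and U2AF2.

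**Figure D2:**
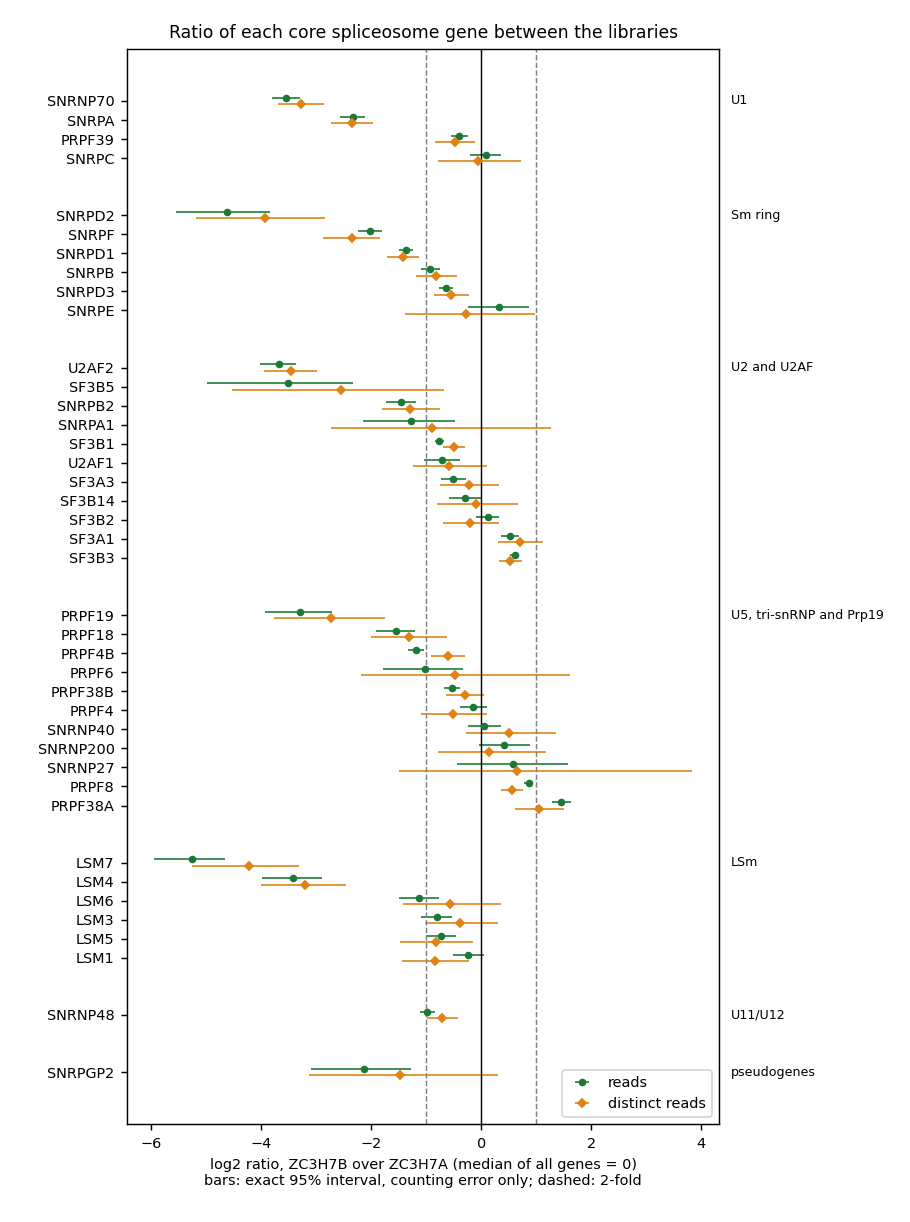
Log2 ratio of ZC3H7B over ZC3H7A (horizontal) for 40 of the 41 members listed in both libraries, from reads (circles) and distinct reads (diamonds), 1 library per protein. Bars are exact 95% intervals for counting error and dashed lines mark 2-fold; both intervals lie left of -1 for 9 members, and PRPF38A alone has its interval from reads right of 1.

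Of the genes for U1-specific proteins, SNRNP70 and SNRPA were higher in the ZC3H7A library in reads and in distinct reads, and SNRPC was not. SNRNP70, which encodes the protein that binds the first stem of U1 RNA, had 140 reads in 6 clusters in the ZC3H7B library and 2307 reads in 15 clusters in the ZC3H7A library. Its log2 ratio was -3.55 (-3.81 to -3.30), or -3.27 (-3.70 to -2.85) in distinct reads, so the ZC3H7A library was 11.7-fold higher by reads. SNRPA, which encodes the U1 protein A, had 189 reads in 8 clusters and 1340 reads in 9 clusters, with a log2 ratio of -2.33 (-2.56 to -2.11) and -2.35 (-2.73 to -1.97) in distinct reads. The third U1-specific gene, SNRPC, did not share this ratio. It had 190 and 253 reads, and its log2 ratio was 0.08 (-0.20 to 0.36).

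PRPF39 encodes a homologue of a yeast protein that associates with U1. It had 503 reads in 25 clusters in the ZC3H7B library and 932 reads in 15 clusters in the ZC3H7A library, a log2 ratio of -0.40 (-0.56 to -0.24).

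The Sm ring genes ranged from a log2 ratio of -4.62 to 0.32, although their proteins occupy the same ring. SNRPD2 had 13 reads in 2 clusters in the ZC3H7B library and 451 reads in 5 clusters in the ZC3H7A library, a log2 ratio of -4.62 (-5.54 to -3.84), or -3.93 (-5.18 to -2.84) in distinct reads. SNRPF had 206 and 1179 reads in 6 clusters each, and stood at -2.02 (-2.24 to -1.81). SNRPD1, the partner of SNRPD2 within the ring, had 637 and 2307 reads and stood at -1.36 (-1.49 to -1.24). All 3 were also beyond 2-fold in distinct reads.

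The other 3 Sm genes with a row in both libraries were not beyond 2-fold in either count. SNRPB stood at -0.92 (-1.10 to -0.75) with 372 and 993 reads, and SNRPD3 at -0.64 (-0.77 to -0.50) with 649 and 1422. SNRPE had few reads in both libraries, 54 and 61, and stood at 0.32 (-0.24 to 0.87). SNRPG had a single cluster of 63 reads made of 3 distinct reads in the ZC3H7A library and no row for ZC3H7B. Reads of these small genes are uncertain between copies. The SNRPG pseudogene SNRPGP2 had 13 reads in the ZC3H7B library and 80 in the ZC3H7A library, the SNRPE pseudogene SNRPEP4 had 19 reads in the ZC3H7A library alone, and SNRPB has a close paralogue, SNRPN, with no row in either table.

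Genes of the U2 snRNP and of U2AF, the factor that reads the 3' splice site for U2, had a median log2 ratio of -0.71, with 3 of 11 (27.3%) higher in the ZC3H7A library in reads, against 18.0% of all genes, and 1 of 11 (9.09%) in distinct reads, close to the 10.1% of all genes. That gene was U2AF2, which encodes the large subunit of U2AF and binds the polypyrimidine tract. It had 82 reads in 8 clusters in the ZC3H7B library and 1483 reads in 22 clusters in the ZC3H7A library, a log2 ratio of -3.68 (-4.02 to -3.36), or -3.45 (-3.94 to -2.98) in distinct reads. U2AF1, which encodes the small subunit, had 109 and 251 reads and stood at -0.71 (-1.05 to -0.38). The subunits of the heterodimer thus stood 12.9-fold and 1.64-fold towards the ZC3H7A library by reads.

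The SF3A and SF3B genes, whose proteins hold U2 at the branch site, lay on both sides of the median gene, and SF3B5 was the sole one of the 7 compared that was beyond 2-fold in reads. SF3B3 stood at 0.61 (0.53 to 0.69), and SF3A1, with 621 and 609 reads, at 0.52 (0.36 to 0.68). SF3B2, with 329 and 427 reads, stood at 0.12 (-0.10 to 0.33), SF3B14 (now SF3B6) at -0.29 (-0.59 to 0.01), SF3A3 at -0.50 (-0.73 to -0.28) and SF3B1 at -0.76 (-0.85 to -0.68). SF3B5, a small subunit, had 1 cluster in each library, of 6 reads and 96 reads. Its log2 ratio was -3.51 (-4.99 to -2.33) in reads and -2.54 (-4.54 to -0.67) in distinct reads, no longer beyond 2-fold.

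SF3A2 had 56 reads made of 5 distinct reads in the ZC3H7A library and no row for ZC3H7B. The U2-specific genes SNRPB2 and SNRPA1, which encode the proteins B'' and A' of the U2 particle, stood at -1.46 (-1.74 to -1.19) and -1.28 (-2.15 to -0.48). SNRPB2 had 143 and 554 reads, and SNRPA1 17 and 58. In distinct reads SNRPB2 stood at -1.29 (-1.81 to -0.76), 2.45-fold towards the ZC3H7A library with an interval that no longer cleared 2-fold. The interval of SNRPA1 did not clear 2-fold in either count.

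In the U5, tri-snRNP and Prp19 group the members divided, with 5 of 11 ratios above 0 and 6 below and a median of -0.14. PRPF19, which encodes the ubiquitin ligase that names the Prp19 complex, had 26 reads in 3 clusters in the ZC3H7B library and 358 reads in 6 clusters in the ZC3H7A library. Its log2 ratio was -3.29 (-3.92 to -2.72), or -2.73 (-3.77 to -1.74) in distinct reads. At the other end PRPF38A, which encodes a factor needed for spliceosome activation, had 779 reads in 36 clusters and 399 reads in 13 clusters. It stood at 1.46 (1.28 to 1.64) in reads and 1.05 (0.62 to 1.505) in distinct reads, where the interval no longer cleared 2-fold.

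The U5 genes PRPF8, SNRNP200 and SNRNP40 had ratios above 0, whereas PRPF6 lay below it. PRPF8 stood at 0.86 (0.79 to 0.94), or 0.56 (0.36 to 0.76) in distinct reads. SNRNP200, which encodes the helicase that unwinds U4 from U6, had 81 and 85 reads and stood at 0.42 (-0.03 to 0.88), and SNRNP40 had 165 and 223 and stood at 0.06 (-0.24 to 0.36). PRPF6, a bridge between U5 and U4/U6, had 23 and 66 reads and stood at -1.03 (-1.78 to -0.32). SNRNP200 and PRPF6 thus had few reads although PRPF8, their partner in the particle, was among the members with the most.

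PRPF4B, which encodes a protein kinase of the tri-snRNP, had 528 and 1683 reads and stood at -1.18 (-1.32 to -1.04). PRPF18, a factor of the second catalytic step, had 84 and 347 reads and stood at -1.55 (-1.92 to -1.21). Neither was beyond 2-fold in distinct reads, at -0.61 (-0.92 to -0.29) and -1.32 (-2.0002 to -0.62). PRPF38B stood at -0.53, PRPF4, a U4/U6 protein, at -0.14, and SNRNP27, with 19 and 18 reads, at 0.57 (-0.44 to 1.59).

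All 6 LSm genes lay below 0, with a median log2 ratio of -0.97 and 2 of 6 (33.3%) higher in the ZC3H7A library in both counts, against 9.79% of all genes. LSM7 had the lowest ratio of all members, with 22 reads in 1 cluster in the ZC3H7B library and 1192 reads in 4 clusters in the ZC3H7A library. It stood at -5.27 (-5.95 to -4.66), or -4.23 (-5.26 to -3.31) in distinct reads, and 0.181% of all compared genes had a lower ratio in reads. LSM4 had 31 reads in 3 clusters and 466 reads in 12 clusters, and stood at -3.42 (-3.99 to -2.89), or -3.21 (-4.01 to -2.46) in distinct reads. The rings of LSm proteins differ in 1 subunit: LSM1 belongs to the cytoplasmic ring that acts in messenger RNA decay, and the U6 ring of the nucleus holds LSM8 in its place. LSM1 had 174 and 288 reads and stood at -0.23 (-0.51 to 0.04), the highest of the 6 in reads. LSM6, LSM3 and LSM5 stood at -1.13, -0.81 and -0.73 in reads. In distinct reads LSM1 stood at -0.84 (-1.44 to -0.21), below LSM6 (-0.56), LSM3 (-0.38) and LSM5 (-0.83).

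SNRNP48 was the sole member of the U11/U12 particle, which serves the minor class of introns. It had 627 reads in 26 clusters in the ZC3H7B library and 1742 reads in 20 clusters in the ZC3H7A library, a log2 ratio of -0.98 (-1.12 to -0.85).

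The clusters on core spliceosome genes lay in coding sequence more often than those on other genes, in both libraries. Coding sequence held 251 of 573 member clusters in the ZC3H7B library, 43.8% (39.7 to 48.0%), against 29.5% (29.2 to 29.8%) for all other genes. In the ZC3H7A library it held 238 of 430, 55.3% (50.5 to 60.1%), against 42.6% (42.1 to 43.0%). The 3' UTR held 36.6% (32.7 to 40.7%) of member clusters in the ZC3H7B library, against 55.9% for all other genes, and 27.0% (22.8 to 31.4%) in the ZC3H7A library, against 39.9%. Clusters of 1 gene are not independent, so the exact 95% intervals cover counting error only. Without PRPF8, which held 48 coding clusters, the share in the ZC3H7B library was 39.6%, and without SF3B1, which held 32, that in the ZC3H7A library was 53.8%.

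**Figure D3:**
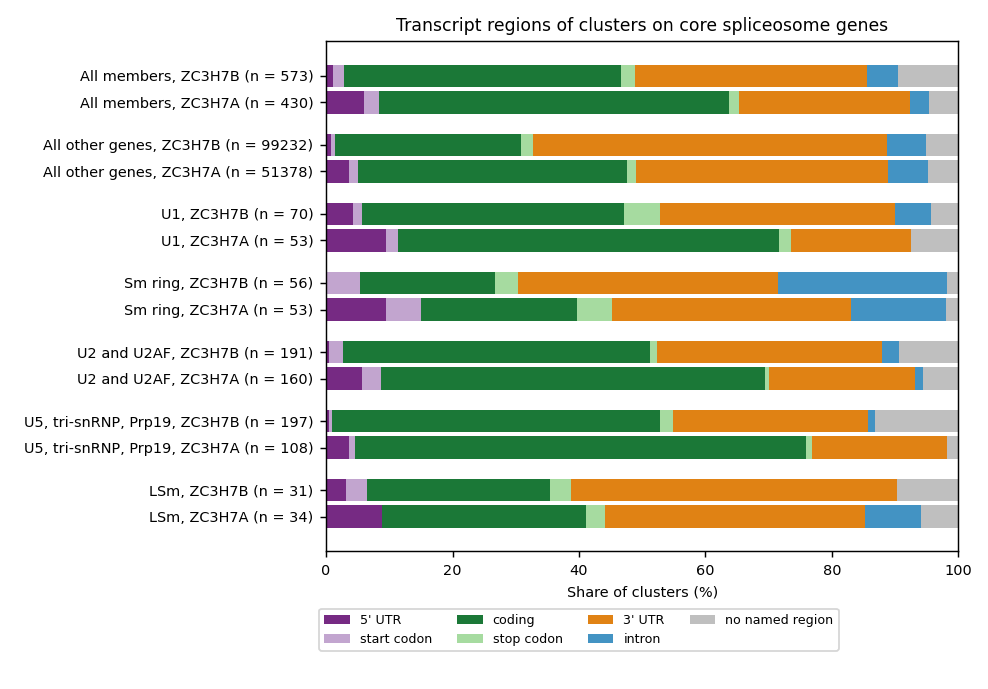
Share of clusters (horizontal, percent) by transcript region, for all members, all other genes and 5 groups of members, with the ZC3H7B library above the ZC3H7A library in each pair and 1 library per protein. Coding sequence holds 43.8% and 55.3% of member clusters and 29.5% and 42.6% of those on all other genes; n is the number of clusters.

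The group of U5, tri-snRNP and Prp19 genes had the highest coding share of the groups in each library, 51.8% (44.6 to 58.9%) for ZC3H7B and 71.3% (61.8 to 79.6%) for ZC3H7A. In the ZC3H7B library PRPF8 held 48 of the group's 102 coding clusters and 61 of its 197 clusters, and the rank there depended on PRPF8. The Sm ring genes had the lowest of the 5 groups drawn, 21.4% (11.6 to 34.4%) and 24.5% (13.8 to 38.3%). That rank rested on SNRPD1, with 0 of 14 and 1 of 17 clusters coding, and SNRPD3, with 4 of 23 and 2 of 12. SNRPB, SNRPD2 and SNRPF had higher coding shares in both libraries, and SNRPE and SNRPG had no coding cluster. U2 and U2AF genes stood at 48.7% and 60.6%, U1 genes at 41.4% and 60.4%, and LSm genes at 29.0% and 32.4% on 31 and 34 clusters.

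Some transcripts were contacted almost entirely within the reading frame and others almost entirely behind it. All clusters of SNRNP200 were coding, 9 in the ZC3H7B library and 4 in the ZC3H7A library, and so were those of PRPF6, 4 and 2. PRPF8 had 48 of 61 and 28 of 30 clusters in coding sequence and 1 and 0 in the 3' UTR. SF3B2 had 8 of 10 and 9 of 10 coding and none in the 3' UTR of either library. By contrast PRPF38A had 31 of 36 and 11 of 13 clusters in the 3' UTR, and SNRPD1 12 of 14 and 14 of 17. Of the 31 members with at least 3 clusters in each library, 4 (12.9%) had at least 75% of them coding in both libraries, against 6.97% of 4517 genes. A 3' UTR share of at least 50% in both was found for 6 members (19.4%), against 36.4% of those genes.

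Within genes, the coding share was mostly lower in the ZC3H7B library than in the ZC3H7A library. Of the 36 members with at least 20 reads in each library, 7 (19.4%) had the larger share in the ZC3H7B library and 23 (63.9%) in the ZC3H7A library, and 6 had equal shares. Over all 5988 such genes these shares were 23.6% and 60.4%. The coding share of the median member differed by -10.8 percentage points (ZC3H7B minus ZC3H7A), and that of the median gene by -8.33. For the 3' UTR, 21 members (58.3%) had the larger share in the ZC3H7B library and 5 (13.9%) in the ZC3H7A library, against 62.8% and 18.4% of all genes. The members' counts were thus close to those of all genes. The size of the 3' UTR difference was smaller for the members. It was 2.5003 percentage points (ZC3H7B minus ZC3H7A) for the median member and 10.0 for the median gene.

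**Figure D4:**
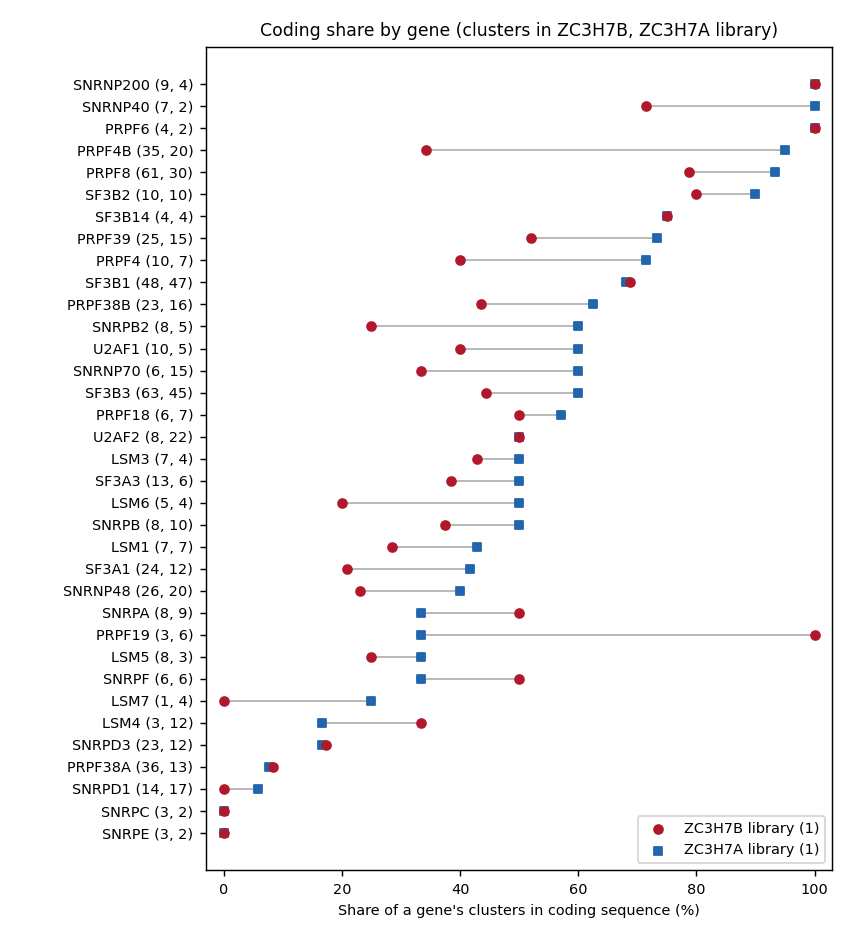
Share of a gene's clusters in coding sequence (horizontal, percent) for 35 of the 36 members with at least 20 reads in each library, ordered by the ZC3H7A value, with circles for the ZC3H7B library and squares for the ZC3H7A library. Numbers in brackets are the clusters in the ZC3H7B and ZC3H7A libraries; the circle lies left of the square for 22 of them and right of it for 7.

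The widest difference towards the ZC3H7A library was that of PRPF4B, with 12 of 35 clusters coding in the ZC3H7B library and 19 of 20 in the ZC3H7A library. Of its other ZC3H7B clusters, 14 lay in no named region, 7 in the 3' UTR and 2 in introns. PRPF38B had 10 coding clusters in each library and 13 and 4 in the 3' UTR, so the number of coding clusters was equal while that in the 3' UTR was not. SF3A1 had 5 coding clusters in each library and 16 and 6 in the 3' UTR.

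SF3B1 had almost the same make-up in both libraries. Of its 48 clusters in the ZC3H7B library, 33 were coding, 10 in the 3' UTR, 1 at the start codon and 4 in no named region, and of its 47 in the ZC3H7A library, 32, 10, 1 and 4. SF3B14 likewise had 3 coding clusters and 1 at the start codon in each library. PRPF19 went the other way on few clusters, with 3 of 3 coding for ZC3H7B and 2 of 6 for ZC3H7A. Cluster positions were not used here, so equal numbers do not show that the same sites were bound.

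Clusters in the 5' UTR were few in the ZC3H7B library, 6 of 573 or 1.05% (0.385 to 2.265%), and more frequent in the ZC3H7A library, 26 of 430 or 6.05% (3.99 to 8.73%). For all other genes the shares were 0.770% and 3.59%. U2AF2 held 7 of the 26, with 0 of its 8 clusters there in the ZC3H7B library, and without it the ZC3H7A share was 4.66%. SNRPA had 1 of 8 clusters in the 5' UTR for ZC3H7B and 4 of 9 for ZC3H7A. The only cluster of SNRPG and 1 of the 2 clusters of SF3A2 in the ZC3H7A library were also in the 5' UTR. Some 5' UTR cluster was present on 5 of 41 members and 16 of 44.

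Start codons held 10 member clusters in each library, 1.75% (0.840 to 3.19%) for ZC3H7B and 2.33% (1.12 to 4.24%) for ZC3H7A, against 0.639% and 1.43% for all other genes. The share of other genes lay below the members' interval in the ZC3H7B library and within it in the ZC3H7A library. SF3A3, SF3B1, SF3B14, SNRPB, SNRPC, SNRPD1 and SNRPD3 had a cluster at the start codon in both libraries. Of these, SNRPC had no cluster inside its coding sequence in either library. Stop codons held 13 and 7 member clusters, 2.27% (1.21 to 3.85%) and 1.63% (0.657 to 3.33%), and the 1.85% and 1.46% of all other genes lay within these intervals.

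Introns held 4.89% (3.27 to 6.99%) of member clusters in the ZC3H7B library and 3.02% (1.62 to 5.11%) in the ZC3H7A library, against 6.13% and 6.21% for all other genes. Most of them were on SNRPD3, which had 15 of 23 clusters in introns for ZC3H7B and 7 of 12 for ZC3H7A. Without SNRPD3 the shares were 2.36% and 1.44%. PRPF39 had 4 of 25 clusters in introns for ZC3H7B and 0 of 15 for ZC3H7A, and U2AF1 had 3 of 10 and 1 of 5. No named region was given for 9.60% (7.31 to 12.3%) and 4.65% (2.86 to 7.09%) of member clusters, against 5.19% and 4.87% for all other genes. The members' share was thus above that of other genes in the ZC3H7B library and close to it in the ZC3H7A library. PRPF4B and PRPF8 held 24 of these 55 clusters in the ZC3H7B library, 14 and 10.

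The share of converted reads in clusters was high on the members, as on all genes. The median over members of the median T-to-C fraction was 0.94 in the ZC3H7B library and 1.00 in the ZC3H7A library, the same values as over all genes. Averaged over clusters in place of the median, the median member stood at 92.2% and 94.7% and the median gene at 91.1% and 97.4%. The lowest member values were 0.80 for SNRNP70 in the ZC3H7B library and 0.73 for SNRPC in the ZC3H7A library. The caller's thresholds are unknown here, and a cut on conversion would push these fractions up.

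Other spliceosome genes, not covered by the naming rule, were compared in the same way. Of 57 such genes (RNA helicases, Prp19 complex, exon junction complex and others), 44 could be compared, and 4 (9.09%) were higher in the ZC3H7B library and 9 (20.5%) in the ZC3H7A library in reads, with a median log2 ratio of -0.36. In both counts the numbers were 2 (4.55%) and 5 (11.4%), against 7.18% and 9.79% of all genes. CDC5L, a core Prp19 complex protein, had 1311 and 3572 reads and stood at -0.95 (-1.05 to -0.86). DHX15, the helicase that takes spliceosomes apart, had 1607 and 2807 reads and stood at -0.31 (-0.40 to -0.22). MFAP1, a protein of the precatalytic spliceosome, had 686 and 1139 reads and stood at -0.24 (-0.38 to -0.10). Their shares of called genes were nearer to the 18.2% and 18.0% of all genes than those of the members.

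Genes that assemble and import snRNPs numbered 15 compared of 17, with 1 (6.67%) higher in the ZC3H7B library and 4 (26.7%) in the ZC3H7A library in reads, against 18.2% and 18.0% of all genes. In both counts the numbers were 1 and 0, against 7.18% and 9.79% of all genes. Their median log2 ratio was -0.68. PHAX, the export adaptor of small nuclear RNAs, had 782 and 2932 reads and stood at -1.41 (-1.53 to -1.30). STRAP, a member of the SMN complex, had 884 and 1397 reads and stood at -0.17 (-0.29 to -0.045). COIL, which encodes the Cajal body protein coilin, had 241 and 1035 reads and stood at -1.61 (-1.82 to -1.41). Clusters of these genes and of the other spliceosome genes were also largely coding, 51.0% and 50.3% in the ZC3H7B library and 69.5% and 64.1% in the ZC3H7A library.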

How the data were processed

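PAR-CLIP clusters of ZC3H7B and ZC3H7A from HEK293 cells were read from 1 deposited table per library. The tools named are STAR 2.5.2a, Bowtie and cutadapt and the build is hg19, per the submitters' processing notes, and their settings and the cluster caller are not stated. Deposited counts are clusters, reads and distinct reads per gene, summed over called clusters, and clusters per transcript region. The deposited fraction is the median T-to-C conversion share of a gene's clusters, and a deposited score gives its sum over clusters. The exon column was read as coding sequence, since it matched the coding class in all 1762 and 2200 rows with 1 cluster.

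Rows naming a class of repeats or small RNAs (407 of 9566 and 282 of 8486) were left out. Of 44 member symbols, 42 were matched to RefSeq (GRCh38.p14) by symbol and 2 by synonym, for names only. Ratios and exact (Clopper-Pearson) 95% intervals were computed as given with the results, and no test was run. The minimums were 20 reads summed for a ratio, 20 reads in each library for within-gene shares, and 3 clusters in each library for shares compared with a set value. The ratio step was first tested on simulated counts without PCR copies, so that test does not cover copies of reads. The members and gene lists were chosen with earlier results of these data known. Any member could be named except 1, which is counted in the totals and not reported here, and of each list outside the rule the 3 genes with the most reads were named. Alternatives covered the measure, the scaling, the minimums, the weighting and uncertain copies. Tools were Python 3.11.15 (scipy 1.17.1, numpy 2.4.6, pandas 2.3.3, matplotlib 3.10.9), and edgeR 4.0.16 in R 4.3.3 for TMM scaling alone.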

Additional observations from a re-analysis of the deposited data

Results flagged for a closer look

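Reads on the small nuclear RNAs themselves were not part of the comparisons of the members. The tables hold them both as classes and as single copies named as genes. The U2 class held 10 reads made of 6 distinct reads in the ZC3H7B library and 225 reads made of 20 distinct reads in the ZC3H7A library. The U6 class held 36 reads made of 3 distinct reads in the ZC3H7A library. Among the single copies, RNU2-2P had 430 reads made of 80 distinct reads in the ZC3H7B library and 363 reads made of 31 in the ZC3H7A library, so that it held more reads than the U2 class in both. RNU6-945P had 24 and 256 reads and RNU1-39P 45 and 148. RNU6-31P, with 51 reads, and RNU6-244P, with 7, were listed for ZC3H7B alone, and RNU2-6P, with 185, for ZC3H7A alone. Copies of these RNAs share sequence, so their reads are uncertain between rows. There was no control library to set these against.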

How the results depend on the processing

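The number of members called higher depended on what was counted. With distinct reads it was 0 for ZC3H7B and 9 for ZC3H7A, by reads per cluster 1 and 6, and by clusters 0 and 2. The median log2 ratio of the members was -0.48 by reads per cluster and -0.40 by clusters, below 0 as with reads. Scaling by totals or TMM, other read minimums, missing genes kept at 0 and leaving out uncertain copies gave 1 member for ZC3H7B and 13 to 17 for ZC3H7A. In clusters, 12 of the 41 members lay on the other side of 0 from reads, among them SNRPGP2, called in reads, at 0.074, LSM5 at 0.49 and SF3B3 at -0.44, and the cause was not tested. As a mean over members, where a gene with 1 cluster weighs as much as PRPF8, the ZC3H7A library had 46.4% coding and 8.83% 5' UTR shares. Both lay outside the intervals of the shares over clusters, 55.3% (50.5 to 60.1%) and 6.05% (3.99 to 8.73%). No paired analysis was possible because each protein had 1 library. For the same reason no replicate could be left out. Many members rest on few distinct reads in the ZC3H7A library, with a member median of 36.5, against 82 in the ZC3H7B library.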
